A study of Mus musculus with 2 samples.

Results

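The 33 genes described here make cholesterol and fatty acids or move cholesterol out of cells. They were listed by their known roles and matched between 2 libraries by Ensembl gene identifier. All 33 had at least 20 unique molecular identifiers (UMIs, each counting 1 captured RNA molecule) over both libraries, with a range of 174 for Fads2 to 17738 for Abcg1, among 29413 genes held by both gene lists. Of them, 15 encode enzymes of sterol synthesis, 4 encode regulators of that pathway or a sterol carrier, 9 encode enzymes that make, lengthen or desaturate fatty acids, and 5 encode the liver X receptor alpha (LXR alpha), cholesterol exporters or related proteins.

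Animal cells build cholesterol from acetyl-CoA through mevalonate, farnesyl diphosphate, squalene and lanosterol. When membrane cholesterol is low, SREBP transcription factors are released from the endoplasmic reticulum and raise the genes of this pathway and of fatty acid synthesis, and when cholesterol is plentiful, oxidised sterols activate LXR, which raises the exporters Abca1 and Abcg1 and also the SREBP-1c form of Srebf1. Macrophages of the lung are known for this branch, because alveolar macrophages take up and break down the lipid film of surfactant and depend on Abcg1 to export its cholesterol.

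Immune cells were taken from metastatic lungs, and the mice were female Balb/c animals seeded with 4T1, a mouse mammary carcinoma line. The study set out to compare cells of the metastatic niche with those of distal lung. Lungs were taken 7 days after injection of labelling 4T1 cells into a vein, cells were sorted by flow cytometry, and RNA was read by 10x Genomics 3′ single-cell sequencing. The distal group and the niche group each had 1 library, and both came from tumour-bearing mice of the same sex and strain with no uninjected group used here. How many animals went into a library, the sort gates and how niche cells were marked are not stated in the labels. No comparison below therefore has a replicate check or a p-value, and the 95% intervals given throughout cover counting error only.

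Promoter windows of 25 of the 33 genes were found in the RefSeq promoter table for build GRCm38.p6, each running from 250 bases before to 50 bases after an annotated start. They are shown for the 4 genes that match the sterol element or the LXR element described below. These genes stand for the 2 arms of the pathway, and windows of other members matched other patterns searched. Hmgcs1, which commits acetyl units to the mevalonate pathway, has its window at chr13:119690101-119690400 on the plus strand. The windows of Abca1 (chr4:53159846-53160145), of 1 start of Srebf1 (chr11:60210422-60210721) and of Fasn (chr11:120824498-120824797) lie on the minus strand. Each sequence reads 5′ to 3′ along its gene, and capitals mark the matches.
Hmgcs1: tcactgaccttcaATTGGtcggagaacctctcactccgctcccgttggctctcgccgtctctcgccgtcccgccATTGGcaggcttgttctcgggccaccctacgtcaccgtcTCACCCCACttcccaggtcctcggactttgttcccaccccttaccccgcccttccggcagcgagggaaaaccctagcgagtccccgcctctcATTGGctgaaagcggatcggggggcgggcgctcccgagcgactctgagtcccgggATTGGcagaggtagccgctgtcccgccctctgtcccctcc
Abca1: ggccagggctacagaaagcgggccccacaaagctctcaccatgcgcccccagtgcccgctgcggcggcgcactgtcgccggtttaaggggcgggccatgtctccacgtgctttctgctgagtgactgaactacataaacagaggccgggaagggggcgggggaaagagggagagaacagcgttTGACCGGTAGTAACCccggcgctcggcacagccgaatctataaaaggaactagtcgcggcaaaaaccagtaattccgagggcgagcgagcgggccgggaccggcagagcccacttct
Srebf1: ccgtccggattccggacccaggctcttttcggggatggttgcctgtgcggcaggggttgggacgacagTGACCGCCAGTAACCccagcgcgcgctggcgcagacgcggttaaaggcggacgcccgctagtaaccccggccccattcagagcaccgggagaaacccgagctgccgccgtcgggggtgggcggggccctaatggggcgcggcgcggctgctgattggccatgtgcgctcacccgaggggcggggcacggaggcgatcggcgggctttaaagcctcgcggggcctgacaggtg
Fasn: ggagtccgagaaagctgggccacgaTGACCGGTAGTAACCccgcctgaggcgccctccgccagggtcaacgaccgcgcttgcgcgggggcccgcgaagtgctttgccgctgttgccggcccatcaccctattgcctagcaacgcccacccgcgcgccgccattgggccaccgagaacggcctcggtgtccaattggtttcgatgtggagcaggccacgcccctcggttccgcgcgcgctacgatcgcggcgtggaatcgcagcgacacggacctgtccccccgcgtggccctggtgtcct

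In Hmgcs1 the capitals mark TCACNCCAC, a sterol regulatory element, 137 bases before the start, and 4 copies of ATTGG, the reverse complement of the CCAAT box bound by NF-Y. In the other 3 windows they mark the reverse complement of GGTTACTNNNGGTCA, an LXR response element with 4 bases between its hexamers, at 67 bases before the start in Abca1, 182 in Srebf1 and 225 in Fasn. Both strands of the windows of 27025 genes were searched with 9 patterns. TCACNCCAC was found in 1.44% of genes and in 1 of the 12 sterol synthesis genes with a window. CCAAT was found in 41.1% of genes and in 11 of those 12. GGTTACTNNNGGTCA was found in 5 genes of the table (0.0185%), of which 3 are described here, and it was written from elements known in these very genes, so the match is no independent evidence. The same sterol element with an A before it (0.270% of genes) and the direct repeats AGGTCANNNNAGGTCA (0.0148%) and GGTCANNNNGGTCA (0.0518%) matched no window of the 33 genes. The looser TCACCNNAC, which shares its start with TCACNCCAC, matched Hmgcs1, Nsdhl and Insig1 (3.53% of genes). GGGCGG, the GC box, matched 11 of the 12 (38.2% of genes), and ATTGGC, which contains the reversed CCAAT box, matched 8 of the 12 (16.7%). A match describes letters in a window and says nothing of whether a factor binds there.

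The distal library held 3945 barcodes with 22323465 UMIs and the niche library 3242 barcodes with 38036915 UMIs, and 4 barcodes occurred in both. After filtering, 3535 distal cells (median 5794.5 UMIs before doublet removal) and 3081 niche cells (median 11197) remained. The matrix headers name Cell Ranger 3.0.2 for the distal and 6.0.0 for the niche library, and the gene lists differ (30149 and 32285 genes), so annotation, software version, depth and group cannot be told apart between libraries. Joint clustering without the 33 genes and other listed lipid genes gave classes named from markers. Monocyte/macrophage-like cells made up 1823 niche and 364 distal cells, and alveolar macrophage-like cells 1121 distal and 10 niche cells. Interstitial macrophage-like cells numbered 107 niche and 109 distal, and dendritic-like cells 94 and 181. Alveolar macrophage markers summed to 9005 CPM (UMIs of a gene per 1000000 UMIs of its class) in the alveolar class and 329 CPM in the distal monocyte/macrophage class, and all 11 were detected in both, while Folr2, an interstitial macrophage marker, was at 245 CPM in the distal interstitial class and 5.2 CPM in the monocyte/macrophage class. Levels below are in CPM. A ratio is the log2 of the quotient of 2 such levels with 0.5 UMI added to each sum, and a gene is called higher or lower when it is past 1.5-fold with an interval that leaves out 0, among genes with at least 20 UMIs in the 2 sums.

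The sterol synthesis genes were read out in every major class, and among named classes of at least 50 distal cells they were at their highest in dendritic-like cells and at their lowest in neutrophil-like cells. In the distal library the 15 genes summed to 565 CPM (529 to 603) in dendritic-like cells and 526 CPM (462 to 597) in stromal and epithelial-like cells, and these intervals overlapped. T cell-like cells at 375 CPM (347 to 404) and alveolar macrophage-like cells at 373 CPM (360 to 386) came next and did not differ beyond counting error. Monocyte/macrophage-like cells were at 312 CPM (292 to 333), non-classical monocyte-like cells at 291 CPM, proliferating alveolar macrophage-like cells at 281 CPM and B cell-like cells at 259 CPM, and the intervals of neighbours in this order overlapped. Interstitial macrophage-like cells were at 204 CPM (172 to 241) and neutrophil-like cells, with a median of 1064 UMIs a cell, at 72.0 CPM (49.5 to 101). The 34 distal plasmacytoid dendritic-like cells, a class under the minimum of 50 cells used here, stood at 846 CPM (732 to 973). In the niche library the order among named classes of at least 50 cells was dendritic-like at 643 CPM (591 to 699), proliferating monocyte/macrophage-like at 523 CPM (505 to 542), interstitial at 432 CPM (401 to 464) and other monocyte/macrophage-like at 318 CPM (311 to 326), with no overlap between these neighbours. The 2 unnamed niche groups of that size lay within this order, 320 cells of a low-UMI cluster at 416 CPM (363 to 475), which overlapped the interstitial interval, and 253 cells of mixed clusters at 359 CPM (342 to 377).

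**Figure D1:**
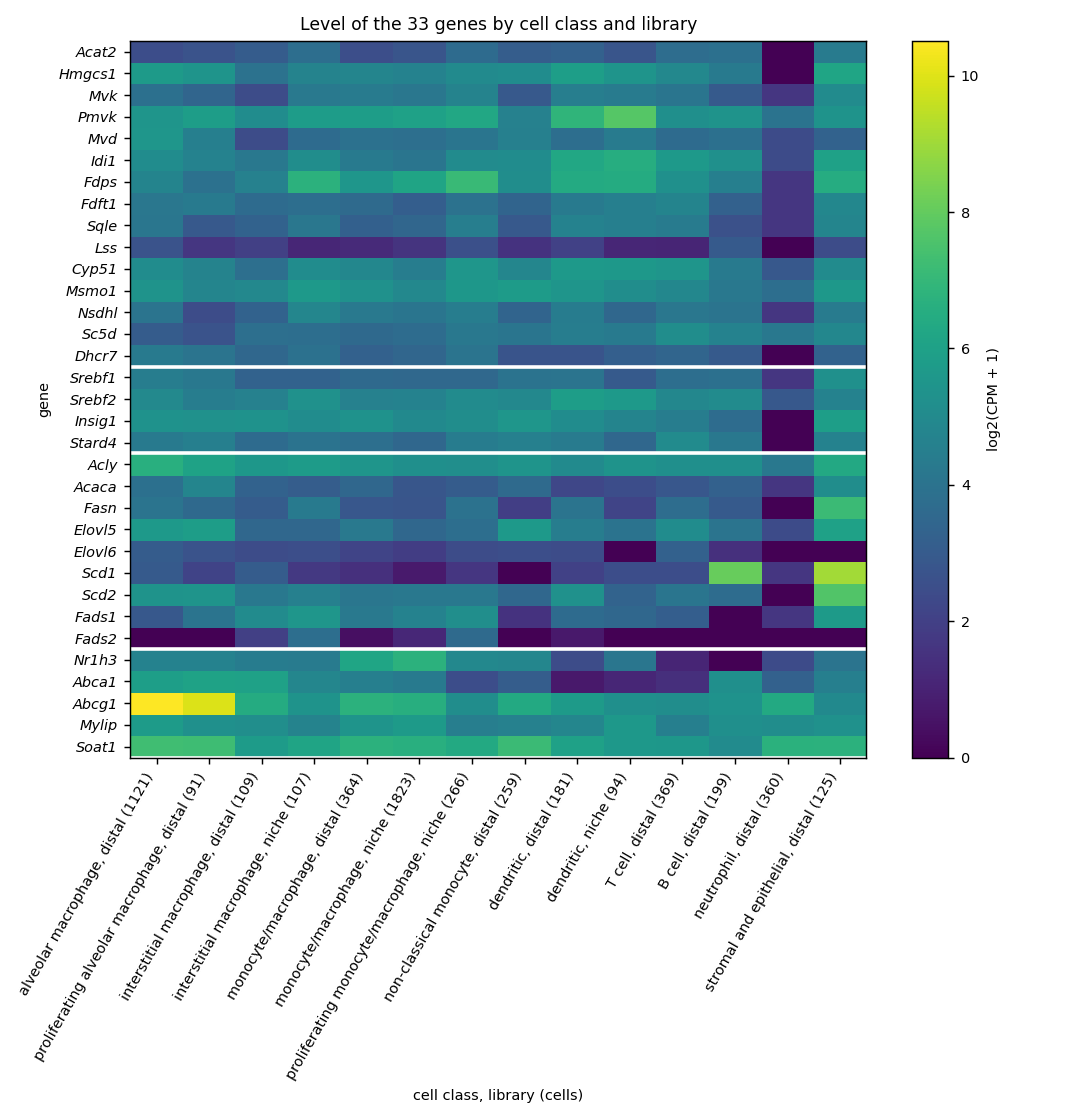
Level of each of the 33 genes (rows) by cell class and library (columns), as the log2 of CPM plus 1, with the genes grouped by role. Rows are read along, since levels of different genes are not compared, and the Abcg1 row is highest in the alveolar columns at 1461 CPM in the distal library.

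The LXR and efflux genes followed another order, led by alveolar macrophage-like cells through Abcg1. The 5 genes summed to 1753 CPM (1725 to 1781) in distal alveolar macrophage-like cells, 1277 CPM (1205 to 1353) in their proliferating counterpart and 350 CPM (329 to 372) in monocyte/macrophage-like cells. Non-classical monocyte-like cells were at 283 CPM, interstitial macrophage-like cells at 263 CPM and neutrophil-like cells at 236 CPM, with overlapping intervals, and T cell-like cells were at 106 CPM (90.9 to 122). The 218 distal cells of mixed clusters stood at 574 CPM (540 to 609). Some distal classes under the minimum of 50 cells were also high. The 41 natural killer (NK) cell-like cells were at 413 CPM (309 to 540). The 34 plasmacytoid dendritic-like cells were at 380 CPM (305 to 468). The part of carried-over alveolar RNA in the sums outside the alveolar classes was not tested. In the niche library the sum was 373 CPM (365 to 381) in monocyte/macrophage-like cells, 184 CPM (164 to 205) in interstitial, 172 CPM (161 to 182) in proliferating monocyte/macrophage-like and 150 CPM (125 to 178) in dendritic-like cells, and the intervals of the last 3 overlapped in part. The unnamed niche groups lay between monocyte/macrophage-like and interstitial cells. The low-UMI cluster was at 285 CPM (241 to 334) and the mixed clusters at 283 CPM (268 to 298).

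**Figure D2:**
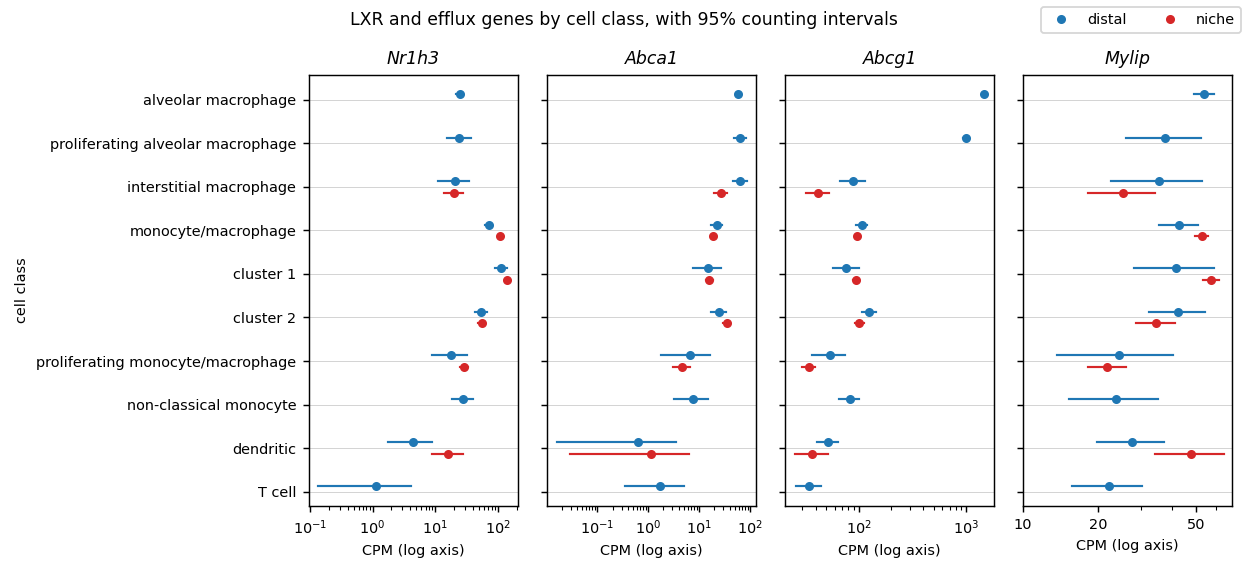
Levels of Nr1h3, Abca1, Abcg1 and Mylip in CPM on a log axis, by cell class and library, with 95% Poisson intervals (counting error only). Soat1, the other LXR and efflux gene, is not drawn. Classes with under 40 cells or with 0 UMIs are left out, and Abcg1 in alveolar macrophage-like cells, at 1461 CPM, stands apart from 107 CPM in distal monocyte/macrophage-like cells.

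Alveolar macrophages were set against monocyte/macrophage-like cells within the distal library, which shares 1 annotation. Abcg1 (chr17:31057675-31117988), which passes cholesterol to high-density lipoprotein, had 12279 UMIs, or 1461 CPM (1435 to 1487), in 1121 alveolar cells and 310 UMIs, or 107 CPM, in 364 monocyte/macrophage-like cells (log2 ratio 3.77, interval 3.61 to 3.94). The 10 alveolar cells of the niche library gave a like level, 1446 CPM (1193 to 1737) from 114 UMIs. In cells that are not macrophages, Abcg1 stood at 34.6 CPM in distal T cell-like cells and 82.9 CPM in neutrophil-like cells. Chil3, an alveolar macrophage marker, was at 40.3 CPM and 153 CPM in these classes, and at 2953 CPM in alveolar cells. Siglecf, another such marker, was at 3.41, 15.3 and 114 CPM. The part of carried-over alveolar RNA in these Abcg1 levels was not tested. Abca1 (chr4:53030787-53159895), which loads cholesterol on apolipoprotein A-I, was also higher in alveolar cells, at 59.1 against 22.4 CPM (log2 ratio 1.39, interval 1.02 to 1.79). Nr1h3 (chr2:91184061-91202834), which encodes LXR alpha itself, was lower, at 24.5 against 70.8 CPM (log2 ratio -1.53, interval -1.82 to -1.24). Mylip, a ubiquitin ligase that LXR induces, was at 53.7 against 42.5 CPM and Soat1, which esterifies cholesterol for storage, at 154 against 107 CPM, both short of the fold limit. The receptor gene and its exporters thus stood in opposite order between the 2 classes.

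Of the 15 sterol synthesis genes, 6 were called higher and 1 lower in alveolar cells, against 31.4% and 13.3% of all genes tested, and their median log2 ratio was 0.22 against 0.25 over all genes, so the list as a whole stood where the background stood. Mvd, which forms isopentenyl diphosphate, was at 45.2 against 14.2 CPM (log2 ratio 1.66, interval 1.21 to 2.18). Hmgcs1 was at 52.4 against 26.2 CPM (0.99, interval 0.64 to 1.37). Lss (1.83), Dhcr7 (1.07), Sqle (0.96) and Idi1 (0.79), which act from isoprenoid isomerisation to the last reduction of cholesterol, were called higher as well. Fdps, which makes farnesyl diphosphate, was the gene called lower, at 25.5 against 44.5 CPM (-0.81, interval -1.13 to -0.48), a call that was lost when the largest cluster of each class was compared alone (-0.37, interval -0.82 to 0.13). With the median of all genes set to 0, the list's median was -0.02, with 5 genes called higher and 4 lower.

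Most fatty acid genes were higher in alveolar cells. Of 8 measured genes, 6 were called higher and 1 lower in alveolar cells, against 31.4% and 13.3% of all genes. The median log2 ratio of the 8 genes was 1.22 against 0.25 over all genes. Acly, which makes cytosolic acetyl-CoA, was at 98.2 against 43.9 CPM (1.16, interval 0.89 to 1.44). Elovl5, an elongase of polyunsaturated chains, was at 50.6 against 18.3 CPM (1.45, interval 1.05 to 1.91). Scd2, a delta-9 desaturase, was at 41.5 against 16.6 CPM (1.31, interval 0.89 to 1.79). Scd1 (1.87, from 58 and 5 UMIs), Fasn (1.28), the fatty acid synthase, and Elovl6 (1.01), an elongase of saturated chains, were also called higher. Fads1, the delta-5 desaturase of polyunsaturated chains, was called lower, at 6.43 against 18.3 CPM (-1.51, interval -2.08 to -0.94). Srebf1 was at 20.7 against 11 CPM (0.89, interval 0.36 to 1.5), and was the 1 of 4 regulation genes called higher.

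Genes of the wider pathway, listed by role, differed between alveolar and monocyte/macrophage-like cells in both directions, in a contrast where 31.4% of all genes were called higher and 13.3% lower. Of 16 further sterol synthesis and uptake genes, 2 were called lower and 8 higher, among them Nceh1, a cholesterol ester hydrolase, at 460 against 53.5 CPM (3.10) and Lipa, the lysosomal acid lipase, at 556 against 181 CPM (1.62). Of 10 measured LXR targets and partners, 5 were called higher and 3 lower. Lpl, lipoprotein lipase, was at 2033 against 167 CPM (3.60) and Rxra, the partner of LXR, at 69.9 against 13.1 CPM (2.39), while Apoe, an LXR target and cholesterol carrier, was at 122 against 6598 CPM (-5.75). Of 8 storage and uptake genes 5 were called higher and 1 lower, with Pparg, a regulator of alveolar macrophage identity, at 101 against 20 CPM (2.33) and Plin2, a lipid droplet coat, at 1598 against 489 CPM (1.71). Of 12 fatty acid oxidation genes none was called lower and 6 higher, among them Cpt1a, the mitochondrial importer of fatty acids (2.42).

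**Figure D3:**
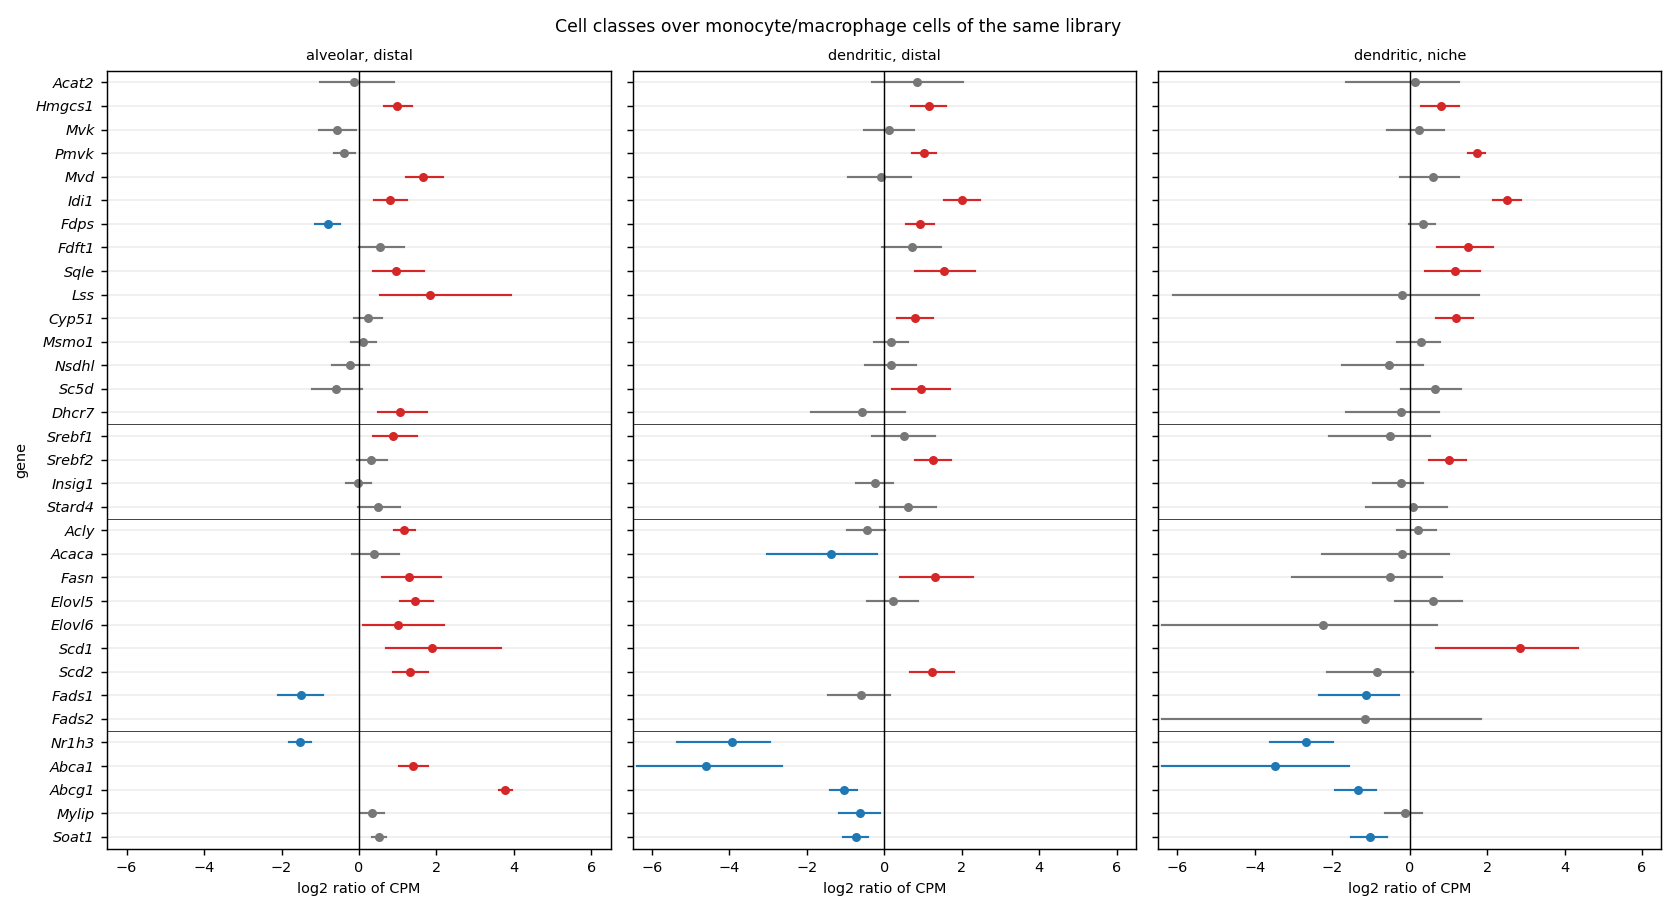
Log2 ratios of the 33 genes for distal alveolar, distal dendritic-like and niche dendritic-like cells over monocyte/macrophage-like cells of the same library, with 95% counting intervals clipped at the axis limits, in red where called higher, blue where called lower and grey otherwise. Abcg1 in alveolar cells lies farthest to the right at 3.77, and all 5 LXR and efflux genes lie left of 0 in dendritic-like cells of both libraries.

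Interstitial macrophages carried fewer sterol synthesis transcripts than monocyte/macrophage-like cells in the distal library and more in the niche library. In the distal library 5 of 13 measured sterol genes were called lower and none higher, against 8.79% and 8.96% of all genes, with a median log2 ratio of -0.72 against -0.02 over all genes. Mvk, mevalonate kinase, was at 4.41 CPM from 3 UMIs against 20 CPM (-1.97, interval -4.50 to -0.57). Cyp51, the lanosterol demethylase, was at 13.2 against 28.3 CPM (-1.03, interval -2.28 to -0.10) and Fdps at 23.5 against 44.5 CPM (-0.88, interval -1.77 to -0.17). Pmvk (-0.72) and Mvd (-1.48), the next steps of the mevalonate chain, were the other 2 genes called lower. In the niche library 7 of 15 genes were called higher and none lower, against 13.7% and 5.73% of all genes, with a median of 0.59 against 0.12 over all genes. There Idi1, the isopentenyl diphosphate isomerase, was at 34.6 against 16.1 CPM (1.12, interval 0.69 to 1.51), and Acat2 (1.19), Sqle (0.79), Nsdhl (0.78), Msmo1 (0.77), Cyp51 (0.71) and Fdps (0.59) were called higher too. Srebf2, the main SREBP of sterol synthesis, was at 39.3 against 24.4 CPM in the niche (0.70) and 23.5 against 23.8 CPM in the distal library (0.01).

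The LXR and efflux genes of interstitial cells kept 1 sign in both libraries for Nr1h3. Nr1h3 was at 20.6 against 70.8 CPM in the distal library (-1.74, interval -2.68 to -1.0) and at 19.9 against 108 CPM in the niche (-2.42, interval -2.97 to -1.95), so interstitial cells were low for it in both. Abca1 was at 64.6 against 22.4 CPM in the distal library (1.53, interval 0.94 to 2.10) and at 27.0 against 19.2 CPM in the niche (0.50), where it was not called. Abcg1 was at 88.1 against 107 CPM in the distal library (-0.27), not called, and at 41.7 against 95.8 CPM in the niche (-1.19, interval -1.56 to -0.86). The distal value depended on a few cells. Without the 5% of cells with the highest doublet scores, 106 of the 109 distal interstitial cells held 26 of the 60 Abcg1 UMIs, or 39.8 CPM (26.0 to 58.4), and the distal ratio was -1.26 (interval -1.93 to -0.70), past the call. The niche ratio was then -1.18 (interval -1.55 to -0.84). At a Leiden resolution of 2.0 the distal ratio was 0.63 (interval 0.18 to 1.05). Soat1 was called lower in the distal library (-0.97) and Mylip in the niche (-1.04). Fads1 was called higher in both libraries, at 0.84 and 0.90, and Fasn (1.76) and Fads2 (3.35), the delta-6 desaturase, in the niche.

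Set against interstitial cells, distal alveolar cells had 5 of 15 sterol genes called higher (22.8% of all genes were) and none lower (10.4%), with a median of 0.71 against 0.26 over all genes. Mvd was at 45.2 against 4.41 CPM (3.14), the latter from 3 UMIs, Hmgcs1 at 52.4 against 14.7 CPM (1.77), and Mvk (1.41), Cyp51 (1.25) and Idi1 (0.88) were the others. Abcg1 was at 1461 against 88.1 CPM (4.04, interval 3.69 to 4.44, and 5.19 without the highest doublet scores) and Soat1 at 154 against 54.3 CPM (1.49). Abca1, at 59.1 against 64.6 CPM (-0.14, interval -0.57 to 0.35), and Nr1h3, at 24.5 against 20.6 CPM (0.21, interval -0.53 to 1.15), did not differ beyond counting error. Elovl5 was higher (2.20) and Fads1 lower (-2.35) in alveolar cells.

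The comparison the study is built on, niche against distal, showed few of the 33 genes apart in monocyte/macrophage-like cells, the class that holds most niche cells. Of the 33 genes 2 were called higher and 2 lower in the niche, against 3.78% and 7.3% of all 11052 genes tested, so the share of members called was near the background. The sterol genes had a median log2 ratio of -0.10 and the all-gene median was -0.04. Fdps was at 70.1 CPM in the niche and 44.5 CPM in the distal library (0.65, interval 0.40 to 0.93). Its locus (chr3:89093588-89101959) overlaps Gm43738, which only the distal gene list holds, so its ratio between libraries is uncertain. Hmgcs1 at 24.7 against 26.2 CPM (-0.10, interval -0.44 to 0.27), Idi1 at 16.1 against 19.3 CPM (-0.28, interval -0.68 to 0.16) and Srebf2 at 24.4 against 23.8 CPM (0.02, interval -0.33 to 0.42) did not differ beyond counting error. The intervals of Cyp51 (-0.44), Msmo1 (-0.42) and Insig1 (-0.40) left out 0 but the genes were short of the fold limit. Among fatty acid genes, Acaca, the acetyl-CoA carboxylase, was at 6.01 against 10.4 CPM (-0.80, interval -1.36 to -0.16) and Elovl5 at 10.4 against 18.3 CPM (-0.83, interval -1.26 to -0.36), the 2 genes called lower. Neither was called within cluster 1, the largest cluster of the class, where Acaca stood at -0.39 (interval -1.55 to 1.41) and Elovl5 at -0.32 (interval -1.22 to 0.92), and Fdps was not called there either (0.27, interval -0.18 to 0.79).

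Nr1h3 was the other gene called higher, at 108 CPM in the niche and 70.8 CPM in the distal library (log2 ratio 0.61, interval 0.40 to 0.82). Its locus overlaps Gm13783, held only by the niche list, so this ratio too is uncertain between libraries. The class was not made up alike in the 2 libraries. Cluster 1, led by Ly6c2, Cxcl9, Gm15056 and Nr1h3 itself (which was not used in clustering), held 55.6% of the niche cells (53.3 to 57.9) and 24.5% of the distal cells (20.1 to 29.2, exact binomial), and cluster 2, led by Retnla, Arg1 and Fn1, held 16.4% and 54.1%. Within cluster 1, Nr1h3 was at 142 against 112 CPM (0.34, interval 0.02 to 0.68), and within cluster 2 it was at 54.8 against 54.0 CPM (0.02, interval -0.36 to 0.42), in neither case called. Over the whole class Nr1h3 also fell short of the fold limit of 0.585 on the log2 scale at a mitochondrial limit of 5% (0.54), without the highest 5% of doublet scores (0.54) and at a Leiden resolution of 0.5 (0.575). Abcg1 was at 95.8 against 107 CPM (-0.16, interval -0.33 to 0.02) and Abca1 at 19.2 against 22.4 CPM (-0.23, interval -0.60 to 0.17) over the whole class. Within cluster 1, 2 sterol genes, Cyp51 (-0.73) and Msmo1 (-0.64), were called lower (background 3.1%) and none higher (2.71%). Within cluster 2, Sqle (1.35), Fdps (1.30) and Fads1 (0.63) were called higher (background 5.27%) and Elovl5 (-0.77) lower (5.42%).

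Clusters 1 and 2 differed from each other in the same way for Nr1h3 in both libraries. Nr1h3 was at 54.0 CPM in cluster 2 and 112 CPM in cluster 1 of the distal library (-1.05, interval -1.51 to -0.58), and at 54.8 and 142 CPM in the niche (-1.37, interval -1.59 to -1.16). In the niche Abca1 was at 34.8 CPM in cluster 2 and 16.0 CPM in cluster 1 (1.13, interval 0.79 to 1.46), and in the distal library at 24.9 and 15.1 CPM (0.67, interval -0.29 to 1.84), not called. Fasn (1.15), Idi1 (0.82), Fads1 (0.69), Srebf1 (0.63) and Sqle (0.60) were called higher in niche cluster 2 (background 5.91%) and Mylip (-0.74) lower (4.07%). In the distal library Abcg1 (0.70) and Insig1 (0.70), the SREBP retention protein, were called higher (background 5.67%) and Fdps (-0.73) lower (5.7%). Of alveolar macrophage markers, Chil3 was at 71.3 CPM in distal cluster 2 and 20.7 CPM in distal cluster 1, while Siglecf was at 1.38 CPM in both. The part of alveolar RNA in the Abcg1 ratio was not tested.

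Of the wider pathway in the monocyte/macrophage-like class, 2 of 11 LXR targets and partners other than the members were called higher and 5 lower in the niche, where 3.78% and 7.3% of all genes were. Apoe was at 3020 CPM in the niche and 6598 CPM in the distal library (-1.13), Pltp, the phospholipid transfer protein, at 138 against 270 CPM (-0.97) and Lpl at 102 against 167 CPM (-0.72). Apoc1 (-1.80) and Rxra (-1.73) were the other 2 genes called lower. Ch25h, cholesterol 25-hydroxylase, which makes an LXR ligand, was higher at 122 against 79.1 CPM (0.62), and Apoc2 (7.35) is uncertain, since it overlaps a gene held by 1 list only. Of 16 other sterol genes none was called higher and 3 lower, among them Mbtps2 (-0.80), a protease that releases SREBP. Apoe is among the leading genes of cluster 2, which held a smaller share of the class in the niche. Within cluster 1, 1 of the 11 LXR targets and partners was called higher and 2 lower (background 2.71% and 3.1%), and within cluster 2, 2 were called higher and 4 lower (5.27% and 5.42%).

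Interstitial macrophage-like cells of the niche had higher levels of many sterol genes than those of the distal library. Of 14 measured sterol synthesis genes 13 had a ratio above 0 in the niche and 7 were called higher, against 12.3% of all genes called higher and 7.44% lower, with a median of 0.79 against 0.08 over all genes. Cyp51 was at 34.0 CPM in the niche and 13.2 CPM in the distal library (1.30, interval 0.34 to 2.56). Idi1 was at 34.6 against 17.6 CPM (0.93), Nsdhl, a sterol dehydrogenase, at 27.0 against 8.81 CPM (1.51), Mvk at 18.2 against 4.41 CPM (1.85), Msmo1 at 49.3 against 29.4 CPM (0.72) and Pmvk at 55.1 against 33.8 CPM (0.68). Fdps, with the annotation limit named above, was at 106 against 23.5 CPM (2.13). Fasn (1.28) and Fads2 (1.85) were called higher among fatty acid genes. With all cells of the class counted, the exporters went the other way. Abca1 was at 27.0 against 64.6 CPM (-1.26, interval -1.89 to -0.63) and Abcg1 at 41.7 against 88.1 CPM (-1.08, interval -1.60 to -0.56). Nr1h3 was at 19.9 against 20.6 CPM. Abca1 was not called at a Leiden resolution of 0.5 (-0.56, interval -1.19 to 0.07). Abcg1 was not called with each cell weighing the same (-0.26) or at a mitochondrial limit of 5% (-0.53, interval -1.15 to 0.14). It was also not called among cells without cell-cycle UMIs (-0.71, interval -1.65 to 0.13) or without the highest 5% of doublet scores (0.065).

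Cell-cycle RNA was also higher in niche than in distal interstitial cells. The 10 cell-cycle markers summed to 309 CPM in niche and 96.9 CPM in distal interstitial cells, and 63.6% (53.7 to 72.6) of niche and 19.3% (12.3 to 27.9) of distal cells held such a UMI, at median depths of 12995 and 5609 UMIs. Among cells with none, 39 niche and 88 distal, 3 sterol genes were measurable, 1 was called higher and their median was 0.34. This split was chosen after seeing the data, and the part of cell-cycle RNA or of depth in the sterol ratios was not tested. At a Leiden resolution of 2.0, which gave 148 niche and 46 distal cells, 1 of 14 sterol genes was called with a median of 0.52, and Cyp51 (0.45), Nsdhl (0.31) and Mvk (0.59) were not. Abcg1 was not lower when the 5% of cells with the highest doublet scores were left out (0.065, interval -0.58 to 0.79, 106 cells in each library), at 42.2 CPM in the niche and 39.8 CPM in the distal library. The alveolar macrophage markers Chil3 and Siglecf were at 74.9 and 4.41 CPM in all distal interstitial cells, and at 0 CPM in the niche ones. The part of alveolar RNA in the Abcg1 ratio was not tested. Further genes called in this contrast were Fabp5, a fatty acid carrier, at 279 against 22.0 CPM (3.62), Ch25h at 242 against 89.6 CPM (1.43), Pltp at 250 against 567 CPM (-1.18) and Apoe at 6710 against 14055 CPM (-1.07).

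**Figure D4:**
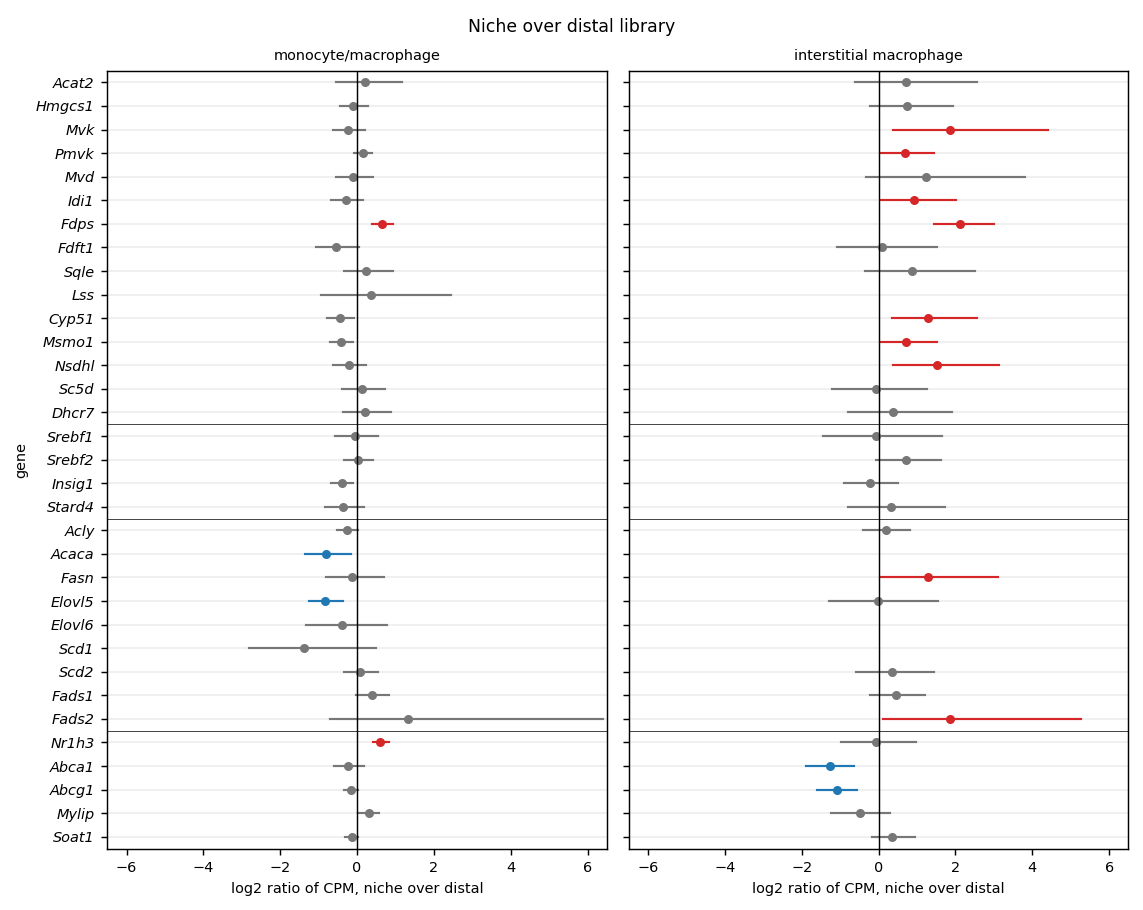
Log2 ratios of niche over distal for the 33 genes in monocyte/macrophage-like and interstitial macrophage-like cells, with 95% counting intervals clipped at the axis limits, in red where called higher, blue where called lower and grey otherwise. In interstitial cells 13 of 14 measured sterol genes lie right of 0, and in monocyte/macrophage-like cells most genes lie close to 0.

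Dendritic-like cells combined a high sterol synthesis level with a low LXR and efflux level relative to monocyte/macrophage-like cells, in both libraries. In the distal library 7 of 14 measured sterol genes were called higher and none lower, against 13% and 14.9% of all genes, with a median of 0.83 against -0.02 over all genes. In the niche library 6 of 15 were called higher and none lower, against 12.4% and 15.3%, with a median of 0.60 against -0.11. Idi1 (chr13:8885501-8892451) was at 77.3 against 19.3 CPM in the distal library (1.99, interval 1.53 to 2.48) and at 91.7 against 16.1 CPM in the niche (2.52, interval 2.14 to 2.87). Pmvk, phosphomevalonate kinase, was at 115 against 56.6 CPM (1.03) and at 210 against 63.2 CPM (1.74), and Sqle, squalene epoxidase, at 24.3 against 8.29 CPM (1.54) and at 22.1 against 10.0 CPM (1.18). Hmgcs1 was higher in both (1.14 and 0.82), as was Cyp51 (0.80 and 1.2). Srebf2 was at 56.7 against 23.8 CPM (1.25) and at 48.8 against 24.4 CPM (1.02). Fdps (0.92) and Sc5d (0.94) were called in the distal library and Fdft1, squalene synthase, in the niche (1.51).

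All 5 LXR and efflux genes had ratios below 0 in dendritic-like cells of both libraries, and 5 were called lower in the distal (background 14.9%) and 4 in the niche library (15.3%). Nr1h3 was at 4.36 CPM (7 UMIs) against 70.8 CPM in the distal library (-3.92, interval -5.35 to -2.95) and at 16.3 CPM (14 UMIs) against 108 CPM in the niche (-2.68, interval -3.61 to -1.98). Abca1 had 1 UMI in either library, at 0.624 against 22.4 CPM (interval of the log2 ratio -10.50 to -2.64) and 1.16 against 19.2 CPM (interval -9.36 to -1.56). Abcg1 was at 51.8 against 107 CPM (-1.04) and 37.1 against 95.8 CPM (-1.34), and Soat1 was lower in both (-0.74 and -1.02). Dendritic-like cells held more cell-cycle RNA than monocyte/macrophage-like cells, 848 against 102 CPM in the distal and 219 against 65.4 CPM in the niche library. Among cells with no cell-cycle UMI, a split chosen after seeing the data, the sterol medians were 1.28 in the distal and 0.65 in the niche library, where 3 genes rather than 6 were called. The part of cell-cycle RNA in these ratios was not tested.

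Between libraries, dendritic-like cells of the niche had Nr1h3 (1.85, interval 0.49 to 3.45, from 14 and 7 UMIs), Pmvk (0.87) and Mylip (0.80) called higher, against 9.55% of all genes, and Fasn (-1.97, from 3 and 25 UMIs) and Scd2 (-1.98, interval -3.33 to -0.99) called lower, against 12.4%. Scd2 was at 9.29 CPM in the niche and 38.7 CPM in the distal library. The make-up of the class differed with these values. Its 7 markers of migratory dendritic cells summed to 4865 CPM in the niche and 2174 CPM in the distal library, and C1qa, a macrophage gene, was at 690 and 163 CPM. The part of either in the lipid gene ratios was not tested.

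Non-classical monocyte-like cells, which patrol vessels, were close to the monocyte/macrophage class at most sterol genes in the distal library, with 1 of 14 called higher (background 19.1%) and 2 lower (12.9%). Idi1 was at 33.2 against 19.3 CPM (0.79), while Pmvk (-1.23) and Mvk (-1.51) were lower. Elovl5 was at 51.2 against 18.3 CPM (1.48, interval 0.91 to 2.06). Nr1h3 (-1.34), Abca1 (-1.49) and Mylip (-0.82) were called lower, and Fads1 stood at 1.90 CPM from 2 UMIs against 18.3 CPM (-2.96, interval -6.35 to -1.35).

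Dividing macrophages need new membrane, and proliferating cells were compared with the others within a type. In the niche library, 266 proliferating monocyte/macrophage-like cells were set against the other 1823. All 15 sterol synthesis genes had ratios above 0 and 9 were called higher, none lower, against 12.1% and 6.38% of all genes, with a median of 0.67 against 0.05 over all genes. Fdps was at 140 against 70.1 CPM (1.0, interval 0.88 to 1.12), Cyp51 at 45.2 against 20.9 CPM (1.11, interval 0.89 to 1.33) and Idi1 at 32.8 against 16.1 CPM (1.03, interval 0.77 to 1.28). Sqle was at 21.4 against 10.0 CPM (1.10, interval 0.77 to 1.41), and Lss (1.34), Acat2 (1.06), Fdft1 (0.88), Msmo1 (0.67) and Dhcr7 (0.62) completed the list. Stard4, a cytosolic sterol carrier, was at 20 against 10.3 CPM (0.96, interval 0.63 to 1.28). Of the wider sterol genes, Lbr, a sterol reductase of the nuclear envelope, was at 50.7 against 16.5 CPM (1.62), and Hsd17b7 (0.89) and Tm7sf2 (0.73) were higher.

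Among fatty acid genes of the same cells, 4 of 9 were called higher and none lower, against 12.1% and 6.38% of all genes. Fads2 was at 11.3 against 1.27 CPM (3.13, interval 2.50 to 3.83), Fasn at 14.7 against 5.79 CPM (1.35, interval 0.94 to 1.75), and Scd1 (1.63, from 13 and 16 UMIs) and Elovl6 (0.73) were higher as well. The LXR and efflux genes all had ratios below 0, and 4 of 5 were called lower (background 6.38%). Their median was -1.48 against 0.05 over all genes. Nr1h3 was at 29.2 against 108 CPM (-1.89, interval -2.12 to -1.67), Abcg1 at 34.3 against 95.8 CPM (-1.48, interval -1.69 to -1.28), Mylip at 21.9 against 52.4 CPM (-1.26, interval -1.53 to -1.0) and Abca1 at 4.64 against 19.2 CPM (-2.03, interval -2.66 to -1.50). Soat1 was at 81.7 against 97.4 CPM (-0.25) and was not called. Of the genes with an LXR element in their window, Abca1 was lower, Fasn higher, and Srebf1 at 10.6 against 10.7 CPM (-0.01).

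These cells kept macrophage RNA, with C1qa at 4760 CPM against 3851 CPM, while Xcr1, a dendritic cell marker, was at 22.2 against 7.9 CPM and Flt3, another, at 0.7 against 0.3 CPM. Their median depth was 22472.5 against 11597 UMIs. In cells with at least 1000 CPM of C1q transcripts, a limit chosen after seeing the data, the sterol median was 0.67 and the LXR and efflux median -1.50. The other niche cells of the class were a mixture, with 55.6% of them in cluster 1. Nr1h3 was at 142 CPM in niche cluster 1 and 54.8 CPM in niche cluster 2. Xcr1 was at 1.7 CPM in niche cluster 1 and 26.7 CPM in niche cluster 4. The part of dendritic cell RNA, of depth or of this cluster make-up in these ratios was not tested. The 42 proliferating cells of this class in the distal library fell under the minimum of 50 cells. There the sterol median was 0.25, with Fdps (0.70) the 1 of 13 genes called higher (background 10.9%), and all 5 LXR and efflux genes were called lower (background 8.36%), with Nr1h3 at 17.9 against 70.8 CPM (-1.92) and Abcg1 at 53.7 against 107 CPM (-0.97).

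Proliferating alveolar macrophage-like cells of the distal library, 91 against 1121, had lower levels of several sterol synthesis genes and no LXR or efflux gene past the call. Of 15 sterol synthesis genes 3 had ratios above 0, 5 were called lower and none higher, against 5.0% and 14.1% of all genes, with a median of -0.38 against 0.10 over all genes. Mvd was at 22.0 against 45.2 CPM (-1.0, interval -1.76 to -0.39), Sqle at 6.61 against 16.4 CPM (-1.20, interval -2.78 to -0.15), and Nsdhl (-1.66, from 4 UMIs), Fdps (-0.78) and Msmo1 (-0.63) were lower. Lbr, by contrast, was at 65.0 against 5.71 CPM (3.51). Fads1 (1.30) and Acaca (0.96) were called higher. None of the 5 LXR and efflux genes was called, with Nr1h3 at 24.2 against 24.5 CPM (0.01, interval -0.72 to 0.62), Abca1 at 65.0 against 59.1 CPM (0.15, interval -0.28 to 0.53) and Abcg1 at 997 against 1461 CPM (-0.55, interval -0.65 to -0.45), short of the fold limit. Whether the ratios of dividing cells differ between the macrophage types was not tested, since each type has 1 library here.

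**Figure D5:**
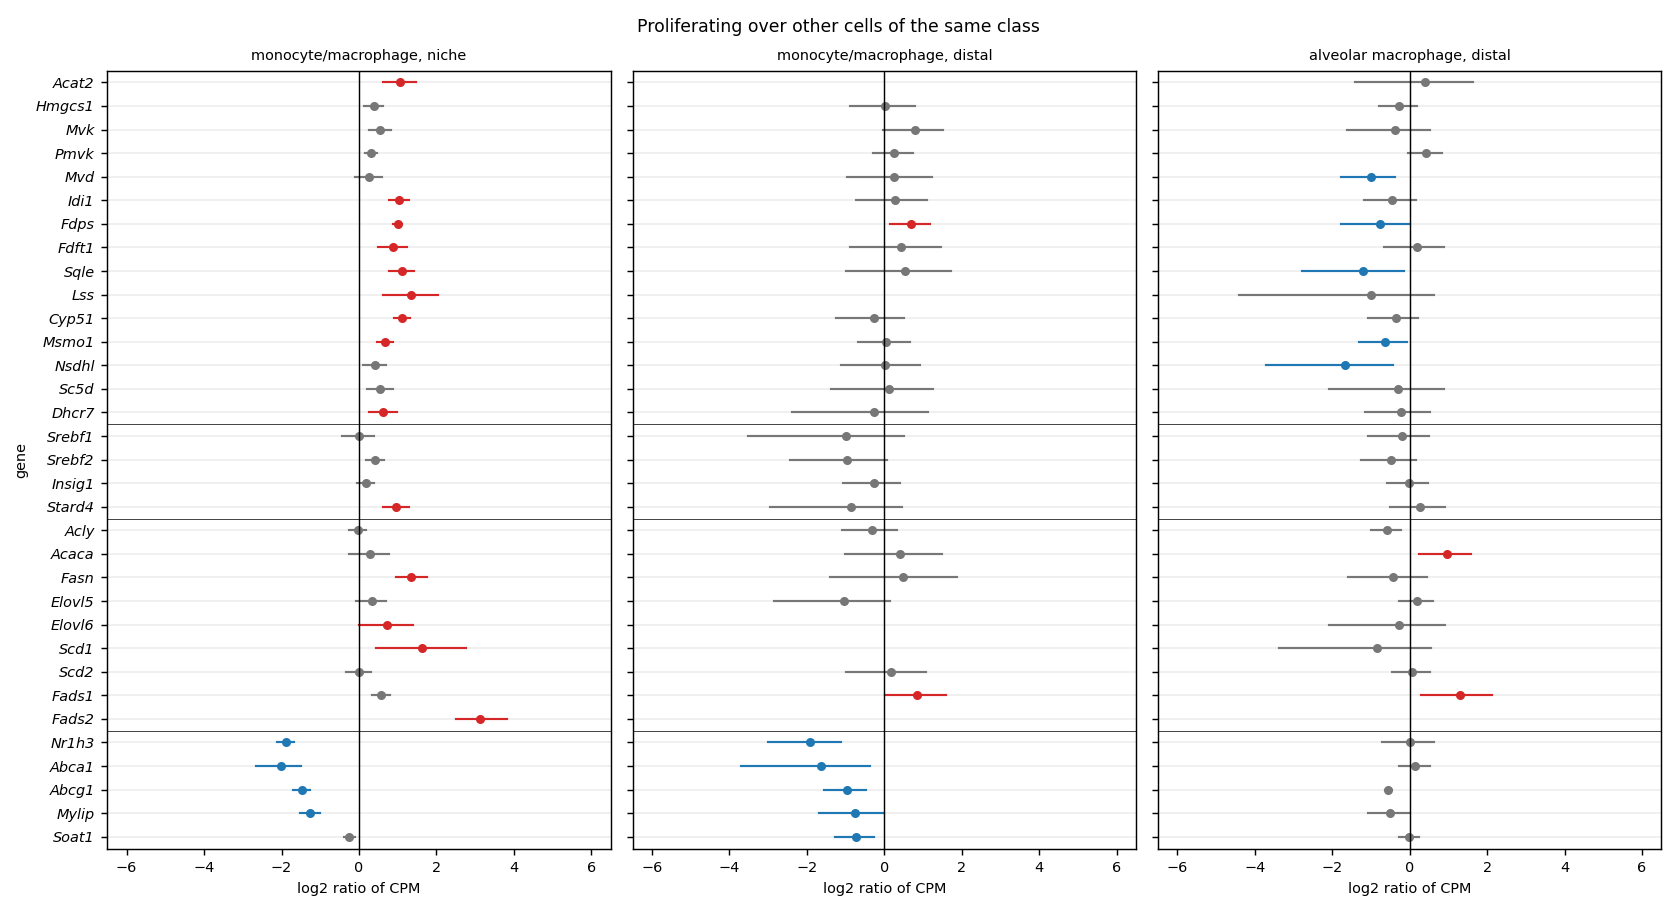
Log2 ratios of proliferating over other cells for the 33 genes, in niche monocyte/macrophage-like, distal monocyte/macrophage-like and distal alveolar macrophage-like cells, with 95% counting intervals clipped at the axis limits, in red where called higher, blue where called lower and grey otherwise. All 15 sterol genes lie right of 0 in the niche class, and 3 of 15 do in alveolar cells.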

How the data were processed

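UMI counts per gene and cell were deposited as 1 matrix per library. Per the file headers, the distal matrix was made with Cell Ranger 3.0.2 and the niche matrix with Cell Ranger 6.0.0, while the submitters' processing notes name RSEM, Bowtie2, Seurat 4.1.1 and Cell Ranger 3.02, with builds GRCm38 and mm10. Barcodes with under 200 genes or over 10% mitochondrial UMIs were left out, and Scrublet, run at an expected rate of 0.03, called 5 distal and 0 niche cells, under 0.5% of cells, so it did not work and doublets may remain. Cells of both libraries were clustered together (scanpy, 2000 variable genes, 30 components, 20 neighbours, Leiden resolution 1.0) without the 33 genes and the listed pathway genes, giving classes named from markers with limits set after the clusters were seen. Cell-cycle genes led the clusters called proliferating. UMIs were summed per class and library. Intervals are exact Poisson for levels, exact conditional binomial for ratios and Clopper-Pearson for shares of cells, all at 95%. Poisson sums were simulated for the niche against distal monocyte/macrophage contrast over 11057 genes. They gave calls for 92% of 2-fold changes, set only in genes with at least 100 UMIs, and for 1.37% of unaltered genes. The share for genes with fewer UMIs was not measured. Spread between cells or libraries was left out of the simulation, so neither share covers it.

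The members and the lists were chosen with earlier results of these data known. Of 17 comparisons reported, 4 stood in the design. The other comparisons (interstitial, dendritic and non-classical cells, clusters, distal proliferating cells) were chosen after seeing the data, and lymphocytes between libraries and clusters 4 and 11 against cluster 1 were looked at and are not given. Values are given for members past the call and for some that were not. Alternatives tried are under the closing section. Exons of 7 members (Hmgcs1, Idi1, Fdft1, Lss, Cyp51, Srebf1 and Elovl6) overlap exons of another gene on the opposite strand. Positions of genes are from GENCODE M21 on GRCm38. A few genes of the wider pathway lists are not reported here.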

Additional observations from a re-analysis of the deposited data

Results flagged for a closer look

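The ratio of interstitial macrophage-like over monocyte/macrophage-like cells went in opposite directions in the 2 libraries for the sterol synthesis genes. The median log2 ratio was -0.72 in the distal library and 0.59 in the niche library. Fdps had ratios of -0.88 (distal) and 0.59 (niche), and Cyp51 ratios of -1.03 and 0.71. This difference was not tested, since each group has 1 library. Cell-cycle markers summed to 96.9 CPM in distal and 309 CPM in niche interstitial cells beside 102 and 65.4 CPM in monocyte/macrophage-like cells, and their part in the difference was not tested.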

How the results depend on the processing

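The medians of 13 gene lists and the ratios of 46 single genes were recomputed under other processing choices, some of them chosen after seeing the data (cells without cell-cycle UMIs, cells with high C1q, UMIs of shared genes as the total, and the alternatives of the interstitial, dendritic and proliferating LXR results). Of 147 recomputed list medians 144 stayed inside the members' typical counting bounds, which are wide, and of 502 gene ratios 470 stayed inside their interval. The LXR median of niche over distal monocyte/macrophage-like cells was 0.28 in cluster 1 alone, that of alveolar over monocyte/macrophage-like cells 0.28 with the median of all genes set to 0, and that of proliferating niche cells -1.20 with lipid genes allowed in clustering. Abcg1 in interstitial cells reversed to 0.065 without the highest 5% of doublet scores, and as the middle of the 5 genes it set the LXR median to the same value. The causes were not tested. In interstitial cells the number of sterol genes called higher in the niche ranged from 7 to 1 (4 with the median of all genes set to 0, 1 at Leiden resolution 2.0). In proliferating alveolar cells 3 rather than 5 sterol genes were called lower at a mitochondrial limit of 5%. Nr1h3 was not called in niche over distal monocyte/macrophage-like cells at that limit (0.54), without the highest doublet scores (0.54), at resolution 0.5 (0.575) or in cluster 1 alone (0.34), and Fdps (0.27), Acaca (-0.39) and Elovl5 (-0.32) were not called in cluster 1 alone. Fdps in alveolar over monocyte/macrophage-like cells was not called with the largest cluster of each alone (-0.37). No paired analysis was possible because each group has 1 library, and for the same reason no replicate could be left out. Members with few UMIs, such as Lss, Scd1 and Fads2, have intervals too wide for a difference of 1.5-fold to be seen in the smaller classes.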

Other observations

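Scd1, a delta-9 desaturase, was found in B cell-like cells of both libraries. It stood at 266 CPM (226 to 311) in 199 distal and 199 CPM in 38 niche B cell-like cells, and 48.2% (41.1 to 55.4) of the distal cells held a Scd1 UMI, against 1.90% (0.77 to 3.87) of distal T cell-like cells and 1.10% (0.30 to 2.79) of distal monocyte/macrophage-like cells, at median depths of 2289, 2815 and 7323 UMIs. In the niche 31.6% (17.5 to 48.7) of the B cell-like cells held one and none of 36 T cell-like cells did, an exact interval that reaches 9.74%. Among immune classes of at least 50 distal cells, Scd1 was highest in B cell-like cells, while their sterol sum, 259 CPM, was below that of monocyte/macrophage-like cells.

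In the distal stromal and epithelial-like class, fatty acid transcripts lay in a few cells. The 19 cells with at least 10000 CPM of surfactant genes, a limit set after seeing the data, had Scd1 at 1560 CPM, Scd2 at 535 CPM and Fasn at 419 CPM, and the other 106 cells had 6.65, 33.2 and 3.32 CPM. Surfactant genes mark alveolar type 2 cells, which make surfactant lipid. The value of the whole class, 1116 CPM summed over the 9 fatty acid genes, therefore depends on how many such cells it holds.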
